A study of Mus musculus with 18 samples.

Results

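Heat shock proteins are molecular chaperones. The 10 genes described here are Hspb1, Hspa1a, Hspa1b, Hspa8, Hsp90aa1, Hsp90ab1, Hsph1, Dnajb1, Hspd1 and Hspe1, and every probe set that the array annotation lists under 1 of these symbols was taken. That gave 22 of the 45101 probe sets of the array for 9 of the 10 genes, since no probe set was listed under Hsp90ab1. Of these, 20 passed the filter on dim probe sets (a mean log2 signal of at least 5.85, a signal of 57.5). The other two, Hsp90aa1 1433251_at and 1441827_x_at, had signals between 2 and 59.3 over all arrays and were not tested.

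The RNA came from livers of mice of the outbred line DUK, bred from 4 outbred and 4 inbred lines, and was measured as biotin-labelled cRNA on 18 Affymetrix arrays in 6 groups of 3. On these, a probe set is a group of short probes read as 1 signal. Dams ate diets of equal energy with 20% or 40% protein by weight. Control offspring had dams on 20% protein in pregnancy and lactation, HP pregnancy (high protein) offspring had dams on 40% in pregnancy and 20% in lactation, and HP lactation offspring had dams on 20% in pregnancy and 40% in lactation. Livers were taken at postnatal day 21 or day 150. Arrays of a group are numbered 1 to 3, those of HP lactation at day 150 4 to 6. Each array carried a pool of livers, and the labels disagree on the pool size: 3 animals, or 4 at day 21 and 3 to 4 at day 150, from 4 to 5 animals per group. The p-values measure the spread between pools and would be too small if an animal entered more than 1 of them. All groups share the line, and sex was not given.

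All values are array signals on the scale the authors deposited. Each array had a trimmed mean of 500.004 to 500.005, so that levels are relative to the array's total and not to the number of cells. In pooled whole liver, fewer cells of a type and less RNA per cell cannot be told apart. Hepatocyte markers were high on all arrays (5 of 6 measured, summed signal 112189 to 226066, none at 0). Signal of Xist, a transcript of female cells, was at 7343 or above on 2 arrays (control day 21 replicate 2 and HP lactation day 150 replicate 4) and at 93 or below on the others. The 2 days also differed in a measure of RNA and labelling quality. The ratio of 3' to 5' Gapdh control signal was 0.821 to 0.993 on the 9 arrays of day 21 and 1.3 to 1.8 on the 9 arrays of day 150, with no overlap in any diet. That of beta-actin was 1.96 to 3.15 at day 21 and 4.06 to 6.5 at day 150, also with no overlap, and entered no fit. Age and these ratios cannot be told apart by design.

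Chaperones bind unfolded or partly folded proteins and keep them from clumping until they fold or are degraded. Hspa8 is the constitutive cytosolic HSP70, and Hspa1a and Hspa1b are its stress-inducible relatives. Dnajb1 is an HSP40 that delivers clients to HSP70 and starts its ATP cycle, and Hsph1 is an HSP110 that exchanges its nucleotide. Hsp90aa1 and Hsp90ab1 are the cytosolic HSP90 proteins, Hspb1 is a small heat shock protein that holds clients without ATP, and Hspd1 and Hspe1 form the chaperonin of the mitochondrial matrix. In stress, heat shock factor 1 binds heat shock elements, arrays of the unit nGAAn in alternating orientation, in the promoters of many of these genes. The liver makes and secretes much protein.

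The promoters are shown as a description of letters. Members that passed the threshold with age and members that missed it in the fit of the deposited signals both held a match. The part of the element in any change was not tested. RefSeq windows on build GRCm38.p6, from 250 bases before to 50 bases after a gene's start, were at hand for 7 of the 10 genes, and Hspa8, Hsp90aa1 and Hsp90ab1 had none in the table. The 2-unit element, GAANNTTC or TTCNNGAA, was found in 6 of the 7 genes, against 17% of all 27025 genes and 15.1% of all 32851 windows. A 3-unit element, GAANNTTCNNGAA or TTCNNGAANNTTC, was found for Hsph1, Hspd1 and Hspe1, against 0.662% of all genes. Both were searched on both strands, each 3-unit match holds overlapping 2-unit matches, and a match describes letters, not binding. Neither window of Dnajb1 held a match. The stretches below run 5′ to 3′ on the strand of the gene, with the elements in capitals. They lie at chr5:135887782-135887849 (plus) for Hspb1, chr17:34959315-34959362 (minus) for Hspa1b, chr17:34972233-34972280 (minus) for Hspa1a, chr1:55088054-55088081 (plus) for Hspe1 and chr5:149636287-149636308 (minus) for Hsph1.
Hspb1: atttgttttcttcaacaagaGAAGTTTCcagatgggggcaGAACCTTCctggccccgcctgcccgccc
Hspa1b: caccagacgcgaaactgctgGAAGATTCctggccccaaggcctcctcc
Hspa1a: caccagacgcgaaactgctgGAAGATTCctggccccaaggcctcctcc
Hspe1: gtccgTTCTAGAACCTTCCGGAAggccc
Hsph1: gctgcagaTTCTGGAAAGTTCt

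The stretches of Hspa1a and Hspa1b are the same letter for letter, and their whole windows differ at 4 of 300 bases (98.7% the same). The 2 genes lie 10120 bases apart on chromosome 17, and as near-identical copies they may share array signal, so values of either are uncertain as to which gene they come from. Hspd1 and Hspe1 overlap by 96 bases on opposite strands of chromosome 1. Of the 2 windows of Hspd1, 1 held matches. The 3-unit matches in that window are at the same bases as those of Hspe1, read from the other strand. They lie before the start used for that window but inside the whole span of Hspd1 (chr1:55077833-55088243). The 3-unit element of Hsph1 begins 37 bases after the start in the window shown, where the elements printed for the other genes lie before the start. A 2-unit match of Hsph1 lies 33 bases before it.

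The comparison of day 150 with day 21 within each diet asks how the members changed as the liver matured. Hspb1 was 9.81- to 15.2-fold higher at day 150 in all 3 diets. Hspa1b rose past the threshold in all 3 on 1452318_a_at, but in HP pregnancy its other probe sets missed it. No member probe set fell past the threshold in any diet. Under other settings Hspa8 1431182_at fell past it in HP pregnancy and Hspd1 in control, as given with those genes below. In limma's fit over all kept probe sets (Benjamini-Hochberg adjustment, threshold 0.05), 10 of 20 member probe sets (6 of 9 genes) rose in control, where 6.94% of all probe sets rose, 6.63% fell and 13.6% were called in all. In HP pregnancy 8 of 20 (6 genes) rose against 8.91% of all (11% fell, 19.9% called), and in HP lactation 12 of 20 (7 genes) rose against 10.2% (10.9% fell, 21.1% called). A gene is counted here if any of its probe sets rose. On the brightest tested probe set of each gene 6 of 9 rose in each diet (Hspa1a among them), against 8.73%, 11.3% and 13.1% of 11018 genes. The members and the gene lists below were chosen with earlier results of these data known. Their counts beside all probe sets or genes are therefore a description and not a test. Hspa1a passed the filter through its day 150 signals alone and so had to differ. Over the 19 member probe sets above the filter level on both days 9, 7 and 11 rose, against 6.95%, 9.01% and 10.3% of 21498 such probe sets. The 3 arrays of 1 day lay beyond the 3 of the other for 12, 13 and 13 of 20 members, against 31%, 41% and 34.6% of all probe sets. The 3 comparisons share no array. The same 7 probe sets, from Hspb1, Hspa1a, Hspa1b, Hspa8, Hsp90aa1 and Hsph1, rose in all 3 diets, as 4.1% of all probe sets did. The log2 change was above 0 in all 3 diets for 14 of 20 member probe sets (70%), against 30.5% of all. Its median over the members was 0.42, 0.47 and 0.61 in control, HP pregnancy and HP lactation, against 0.01, -0.04 and -0.02 over all probe sets. Hspa1a is among the 7 probe sets and in all counts over 20. Over the 19 member probe sets without it the median was 0.42, 0.45 and 0.59.

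**Figure D1:**
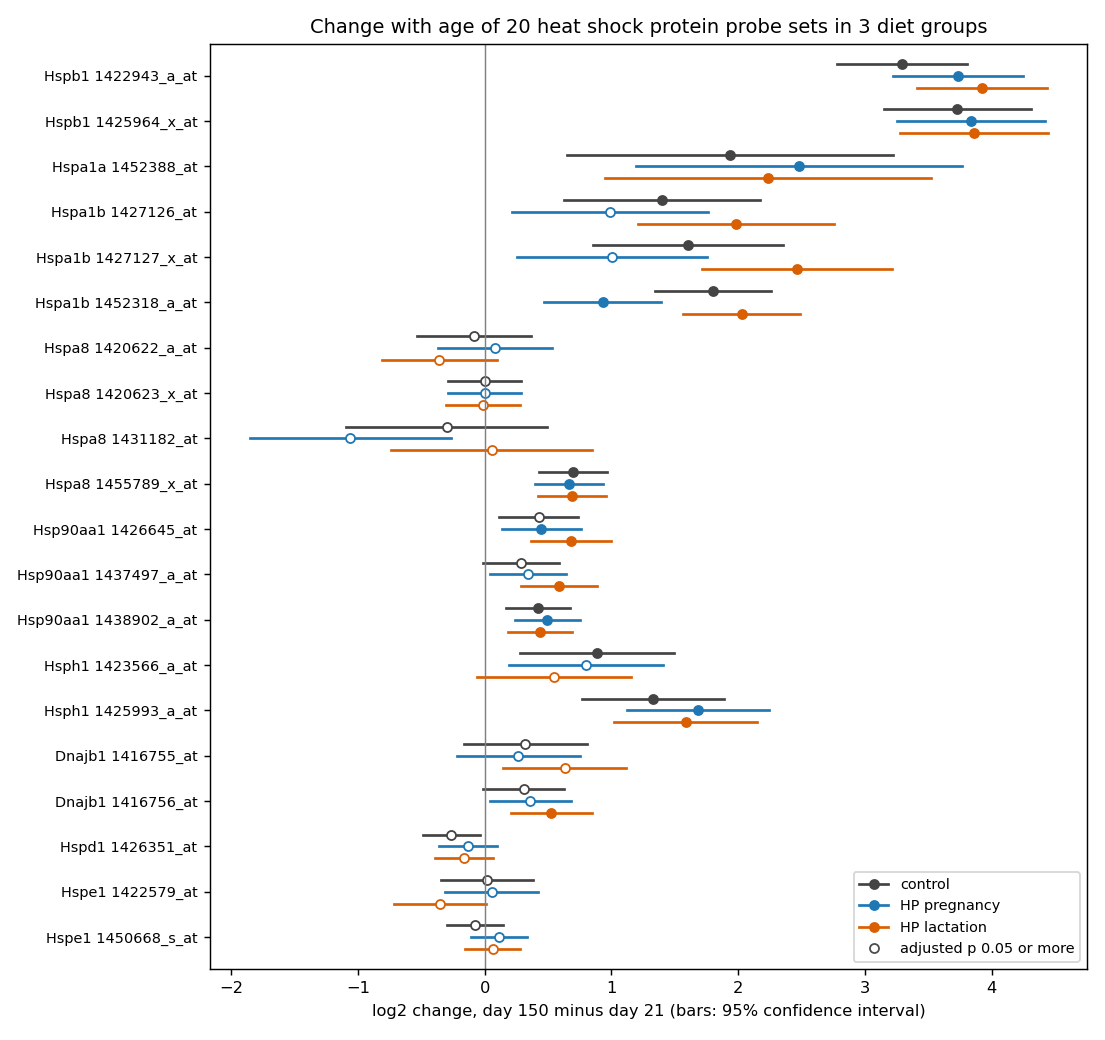
Log2 change of signal from day 21 to day 150 (x axis, log2 units, bars are 95% confidence intervals) for the 20 tested heat shock protein probe sets (y axis) in control (grey), HP pregnancy (blue) and HP lactation (orange), with filled points where the adjusted p was under 0.05. The Hspb1 probe sets lie between 3.29 and 3.92, those of Hspa1a, Hspa1b and Hsph1 between 0.55 and 2.48, and those of Hspd1 and Hspe1 between -0.35 and 0.11.

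With the Gapdh ratio added to the fit, the members called with age went from 10, 8 and 12 to 2 (both Hspb1), 0 and 1 (Hspb1 1422943_a_at) of 20. Calls over all probe sets went from 3056, 4481 and 4742 to 72, 4 and 26, and the standard error of Hspb1 1422943_a_at from 0.24 to 0.49, 0.68 and 0.70. Its log2 changes in that fit were 3.15, 3.52 and 3.70 (adjusted p = 0.00741, 0.15 and 0.0493). What share of each rise goes with age and what with the ratio cannot be told apart. Some summed cell type markers also moved with day. Summed signals of 6 stellate cell markers were 15600 to 21242 at day 21 and 10781 to 16402 at day 150. Those of 7 macrophage markers were 7029 to 11893 and 10672 to 15555. Both overlapped between days over all diets, but not within any diet. The highest medians in these sums were those of Dcn (10044) and Csf1r (5194). Of the stellate markers 0 rose and 3, 2 and 2 fell in control, HP pregnancy and HP lactation. Of the macrophage markers 2, 2 and 4 rose and 0, 1 and 1 fell. Summed signals of 4 lymphocyte markers, 2 of them above the filter, were 653 to 1179 and 1196 to 1958, a sum made up mostly of Ptprc. Endothelial markers (6 of 6) overlapped within each diet too, at 7759 to 12166 and 7782 to 12986. So did the 4 measured cholangiocyte markers, at 186 to 382 and 154 to 351. Erythroid markers (4 of 6 on the array, 1 above the filter) were at 259 to 484 and 382 to 1311. No list had a marker at 0, and the part of these cell types in the members' changes was not tested.

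Hspb1 (chr5:135887919-135889563), the small heat shock protein, changed most. On probe set 1422943_a_at its signals at day 21 were 177, 218 and 195 in control, 193, 176 and 134 in HP pregnancy, and 200, 93.5 and 124 in HP lactation. At day 150 they were 2128, 1855 and 1800.4 in control, 1943, 2392 and 2309 in HP pregnancy, and 2746, 2074 and 1427 in HP lactation. Every array of day 150 was above every array of day 21, by at least 1427 against 218. The fold change was 9.81, 13.3 and 15.2 (log2 3.29, 3.73 and 3.92, each SE 0.24, adjusted p = 1.12e-07, 2.27e-08 and 2.98e-09). Its rise ranked 31, 18 and 26 among the 22519 probe sets. The second probe set, 1425964_x_at, gave 13.3-, 14.3- and 14.5-fold, from 67.8 to 154 at day 21 to 978 to 2042 at day 150. Both were called in all 3 diets under each alternative run other than the Gapdh ratio.

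**Figure D2:**
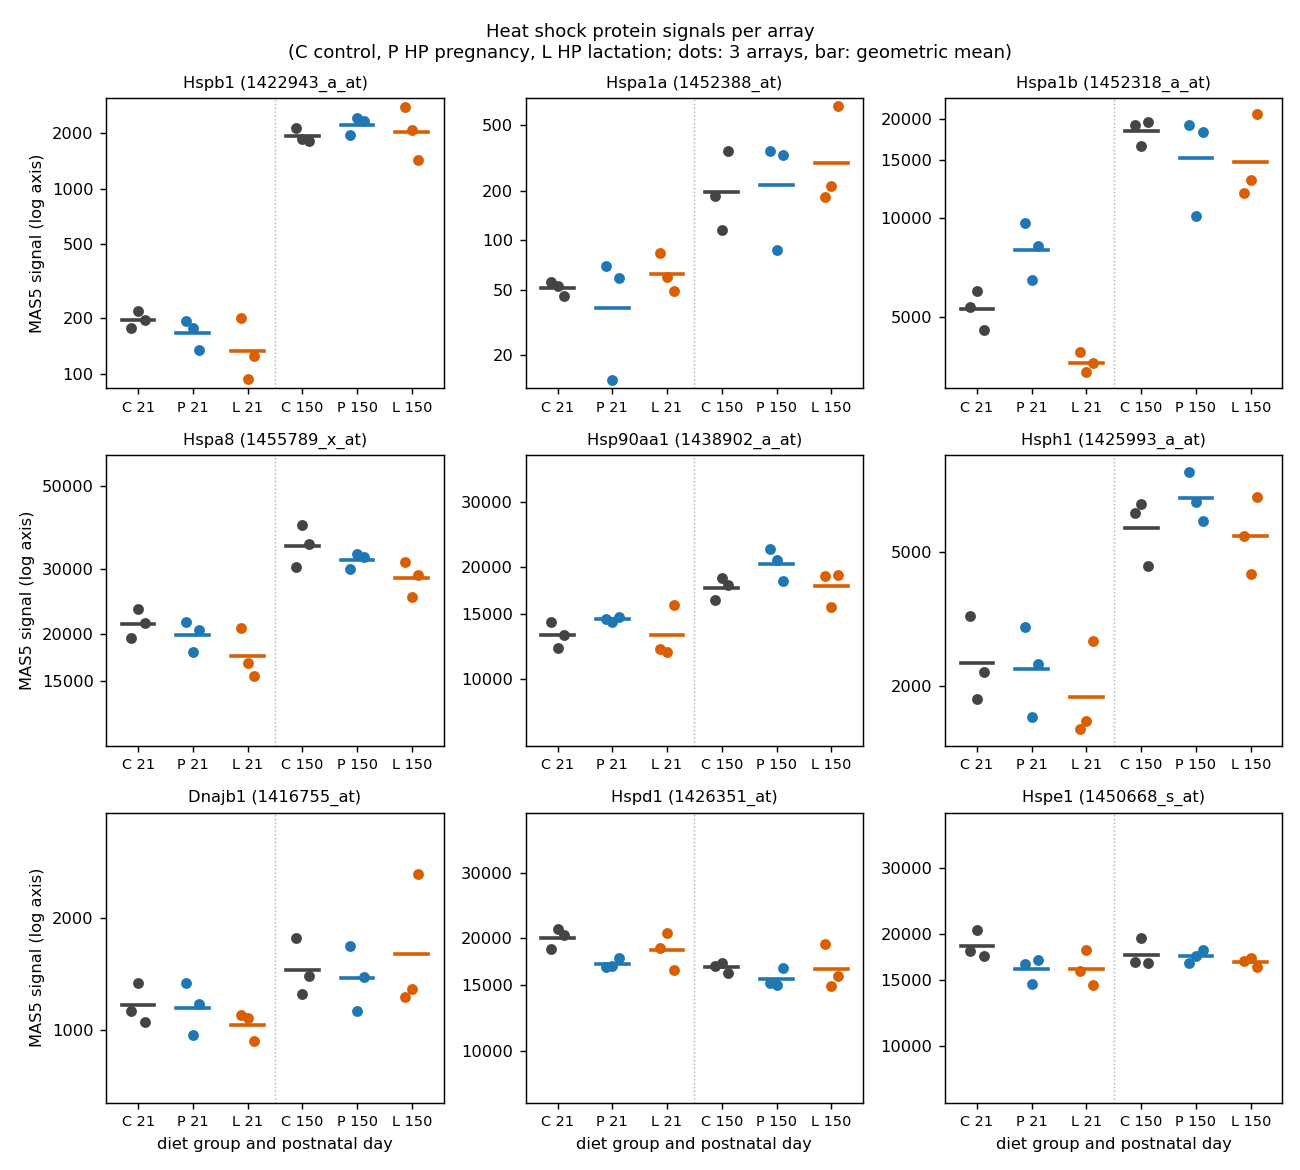
Signal on each array (y axis, log scale, array signal units) for the brightest tested probe set of each of 9 genes, by diet and postnatal day (x axis, C control, P HP pregnancy, L HP lactation). Dots are the 3 arrays of a group and bars their geometric mean. Hspb1 moves from 93.5 to 218 at day 21 to 1427 to 2746 at day 150, while Hspd1 and Hspe1 stay between 14549 and 21158.

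Hspa1b (chr17:34956429-34959238), an inducible HSP70, was already bright at day 21. On 1452318_a_at the signals at day 21 were 5370, 6018 and 4566 in control, 9659, 6498 and 8216 in HP pregnancy, and 3905, 3388 and 3614 in HP lactation. At day 150 they were 19222, 16576 and 19627 in control, 19199, 10173 and 18267 in HP pregnancy, and 11959, 13072 and 20749 in HP lactation. The lowest array of day 150 was above the highest of day 21. The signal rose 3.49-fold in control (log2 1.80, SE 0.22, adjusted p = 2.56e-05), 1.91-fold in HP pregnancy (0.93, adjusted p = 0.00603) and 4.08-fold in HP lactation (2.03, adjusted p = 3.75e-06). Probe sets 1427126_at and 1427127_x_at rose in control (1.4 and 1.60) and HP lactation (1.98 and 2.46). The control call of 1427126_at was lost without day 21 replicate 1 or 3 or day 150 replicate 1 (1.25 to 1.33, adjusted p = 0.054 to 0.0599). In HP pregnancy their changes of 0.99 and 1.0 missed the threshold (adjusted p = 0.0666 and 0.0559). Replicate 2 of HP pregnancy day 150, at 2348 and 3678 on these 2 probe sets, was far below replicates 1 and 3 (8508 and 6626, and 11974 and 11204). Without that array the changes were 1.55 and 1.56 (adjusted p = 0.00287 and 0.00203), and without replicate 1 of the same group they were 0.62 and 0.70 (adjusted p = 0.299 and 0.239). On 1427127_x_at the change also passed with the filter at the 70th percentile, equal 75th percentiles, 50 added to the signal or array weights (adjusted p = 0.0444 to 0.0497).

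Hspa1a (chr17:34969359-34972156), the other inducible HSP70, was dim at day 21, with a geometric mean of 49.8, under the filter level of 57.5, against 231 at day 150. It passed the filter through its day 150 signals alone, so its p-values below are not support for a rise. Its 1 probe set, 1452388_at, had signals of 55.8, 52.6 and 45.6 in control, 70, 14.1 and 58.9 in HP pregnancy, and 83.6, 59.6 and 48.9 in HP lactation. At day 150 the signals were 186, 116 and 349 in control, 346, 87.7 and 330.3 in HP pregnancy, and 183, 212 and 651 in HP lactation. Each day 150 array was above all day 21 arrays, though 87.7 and 83.6 nearly met. The rise was 3.82-fold, 5.57-fold and 4.70-fold (log2 1.94, 2.48 and 2.23, each SE 0.61, adjusted p = 0.0427, 0.00806 and 0.0143). With 50 added to the signal, which damps changes from a dim baseline, the log2 changes were 1.30, 1.54 and 1.63 (adjusted p = 0.0405, 0.0117 and 0.00774), so the sizes of the folds depend on the scale. These calls also depended on single arrays. The call in control was lost with no filter, eBayes without trend, array weights or the Xist arrays left out (adjusted p = 0.0645, 0.0686, 0.0838 and 0.0927), and without any 1 of 5 of its 6 arrays (all but day 150 replicate 2), with adjusted p of 0.0730 to 0.167. The call in HP pregnancy was lost without day 21 replicate 2 (1.75, adjusted p = 0.0602), and that in HP lactation without day 150 replicate 6 (1.66, adjusted p = 0.0831).

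Hspa8 (chr9:40801276-40805202), the constitutive HSP70, gave unlike answers on its 4 probe sets. On 1455789_x_at the signals at day 21 were 19503, 23386 and 21389 in control, 21575, 17945 and 20503 in HP pregnancy, and 20821, 16752 and 15461 in HP lactation. At day 150 they were 30216, 39301 and 34855 in control, 29861, 32883 and 32327 in HP pregnancy, and 31250 (31249.8), 25132 and 28915 in HP lactation. The groups did not overlap, and the rise was 1.62-, 1.59- and 1.61-fold (adjusted p = 0.0014, 0.00132 and 0.000856). On 1420623_x_at, with signals of 12095 to 18618 on all arrays, the 95% interval of the log2 change was -0.29 to 0.29 in control and in HP pregnancy and -0.30 to 0.28 in HP lactation. Probe set 1420622_a_at changed by -0.09, 0.08 and -0.36, and the dim 1431182_at by -0.30, -1.06 and 0.06, none past the threshold, though the -1.06 in HP pregnancy had an adjusted p of 0.0552. That fall passed with array weights (-1.03, adjusted p = 0.0162), with the compared arrays alone (adjusted p = 0.0426), with the replicate block (adjusted p = 0.0191), without the Xist arrays (adjusted p = 0.0373) and without day 150 replicate 1 (-1.40, adjusted p = 0.0228). Without day 150 replicate 2 it was -0.75 (adjusted p = 0.243). Which probe set follows the Hspa8 transcript was not tested.

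Hsph1 (chr5:149616843-149636498), the HSP110 that recharges HSP70, rose in all 3 diets on 1425993_a_at. Its signals at day 21 were 3220 (3219.6), 1831 and 2199 in control, 2991, 1625 and 2324 in HP pregnancy, and 1492, 1581 and 2725 in HP lactation. At day 150 they were 6521, 6912 and 4551 in control, 8626, 7009 and 6167 in HP pregnancy, and 5548, 4306 and 7273 in HP lactation. All day 150 arrays were above all day 21 arrays. The fold change was 2.51, 3.21 and 3.00 (log2 1.33, 1.68 and 1.59, each SE 0.27, adjusted p = 0.00283, 0.000261 and 0.000374). The second probe set, 1423566_a_at, changed by 0.89 in control (adjusted p = 0.0485), 0.80 in HP pregnancy (adjusted p = 0.0588) and 0.55 in HP lactation. Its call in control was lost without day 21 replicate 2 or 3 or day 150 replicate 1 or 2 (0.73 to 0.87, adjusted p = 0.108 to 0.174). It was also lost with no filter, quantile normalization, equal 75th percentiles, eBayes without trend, array weights and without the Xist arrays (0.73 to 0.89, adjusted p = 0.0517 to 0.183). The HP pregnancy change passed with the filter at the 70th percentile, equal 75th percentiles, array weights, the compared arrays alone and the replicate block (0.80 to 0.88, adjusted p = 0.0166 to 0.0478; 0.032 with the block).

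Hsp90aa1 (chr12:110691036-110696395), the inducible cytosolic HSP90, rose by less. On 1438902_a_at the geometric mean went from 13145 to 17583 in control, 14507 to 20452 in HP pregnancy and 13137 to 17808 in HP lactation. That was 1.34-, 1.41- and 1.36-fold (adjusted p = 0.0276, 0.0075 and 0.0148). In control and HP pregnancy every day 150 array was above every day 21 array, and in HP lactation day 21 replicate 3 (15834) lay above day 150 replicate 5 (15660). The control call was lost without day 21 replicate 2 or 3 or day 150 replicate 2 or 3 (0.36 to 0.42, adjusted p = 0.0661 to 0.11), with no filter (adjusted p = 0.0682), with eBayes without trend (adjusted p = 0.0617) and without the Xist arrays (adjusted p = 0.0931). The HP lactation call was lost without day 21 replicate 1 or 2 or day 150 replicate 6 (0.36 to 0.39, adjusted p = 0.0567 to 0.0678), with quantile normalization (0.31, adjusted p = 0.113) and with the compared arrays alone (adjusted p = 0.101). On 1426645_at the change was 0.43 (adjusted p = 0.0666), 0.45 (adjusted p = 0.0412) and 0.68 (adjusted p = 0.00314), and the HP pregnancy call was lost without any 1 of its 6 arrays (adjusted p = 0.0632 to 0.15), with no filter (adjusted p = 0.0761) and with eBayes without trend (adjusted p = 0.0782). The control change passed without day 21 replicate 1 (0.54, adjusted p = 0.0378). On 1437497_a_at it was 0.29, 0.34 and 0.59, of which the last passed (adjusted p = 0.00708). That change exceeded those of control and HP pregnancy by 0.30 (adjusted p = 0.956) and 0.25 (adjusted p = 0.876), neither past the threshold. With the compared arrays alone the HP lactation call was lost (adjusted p = 0.0559) and the HP pregnancy change passed (adjusted p = 0.0346), as it did with array weights (adjusted p = 0.0359).

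Dnajb1 (chr8:83608175-83612653), the HSP40 partner of HSP70, passed the threshold in HP lactation, on 1416756_at. Its signals there were 810.0, 773 and 731 at day 21 and 1170 (1169.7), 977 and 1196 at day 150, a rise of 1.44-fold (log2 0.53, adjusted p = 0.019). The call was lost without day 21 replicate 3, day 150 replicate 4 or day 150 replicate 6 (0.47 to 0.49, adjusted p = 0.0551 to 0.0675). In control and HP pregnancy the same probe set changed by 0.31 and 0.36, the latter past the threshold with array weights (0.37, adjusted p = 0.0243), and the HP lactation change exceeded these by 0.22 (adjusted p = 0.958) and 0.17 (adjusted p = 0.931), neither past the threshold. On 1416755_at the changes were 0.32, 0.27 and 0.63 (adjusted p = 0.405, 0.464 and 0.0594). The HP lactation change was 0.28 without day 150 replicate 6 (adjusted p = 0.341). It passed without replicate 4 (0.83, adjusted p = 0.0276) or 5 (0.79, adjusted p = 0.041), without the Xist arrays (adjusted p = 0.0273), with the filter at the 70th percentile (adjusted p = 0.0481) and with equal 75th percentiles (0.71, adjusted p = 0.0459).

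The mitochondrial chaperonin did not pass the threshold with age in the fit of the deposited signals. Hspd1 (chr1:55077833-55088243), its large ring subunit, had signals of 18794, 21158 and 20446 at day 21 and 16919, 17232 and 16169 at day 150 in control. The change was -0.26 in control (95% interval -0.49 to -0.03, adjusted p = 0.121; -0.22, adjusted p = 0.0407 with quantile normalization, where it passed), -0.13 in HP pregnancy and -0.16 in HP lactation. In control and in HP pregnancy every array of day 150 was below every array of day 21. In HP pregnancy the nearest arrays were 16675 and 16731, and in HP lactation the days overlapped. Hspe1 (chr1:55088148-55091317), the lid subunit, changed by -0.08, 0.11 and 0.06 on 1450668_s_at, where signals were 14549 to 20499 on all arrays. Its other probe set, 1422579_at, changed by 0.02, 0.05 and -0.35, the last with 3 lower arrays at day 150 (6686, 7102 and 6199 against 7446, 10570 (10569.5) and 7719) and an adjusted p of 0.167.

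The comparisons with control of the same day ask whether the dams' protein supply left a mark on the members. No member probe set passed the threshold in any of the 4 comparisons, where 0%, 0.235%, 1.12% and 0.00888% of all probe sets did (HP pregnancy and HP lactation at day 21, then both at day 150). At an unadjusted p under 0.05 limma called 3, 3, 1 and 2 of 20, or 15%, 15%, 5% and 10%, against 10.9%, 15.5%, 17.4% and 8.53% of all. The log2 changes ran from -0.40 to 0.60, -0.57 to 0.29, -0.51 to 0.29 and -0.39 to 0.59. The 3 arrays of 1 group lay beyond the 3 of the other for 6, 1, 1 and 1 of 20, against 17.9%, 17%, 24.9% and 14% of all. Comparisons on the same day share their 3 control arrays.

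**Figure D3:**
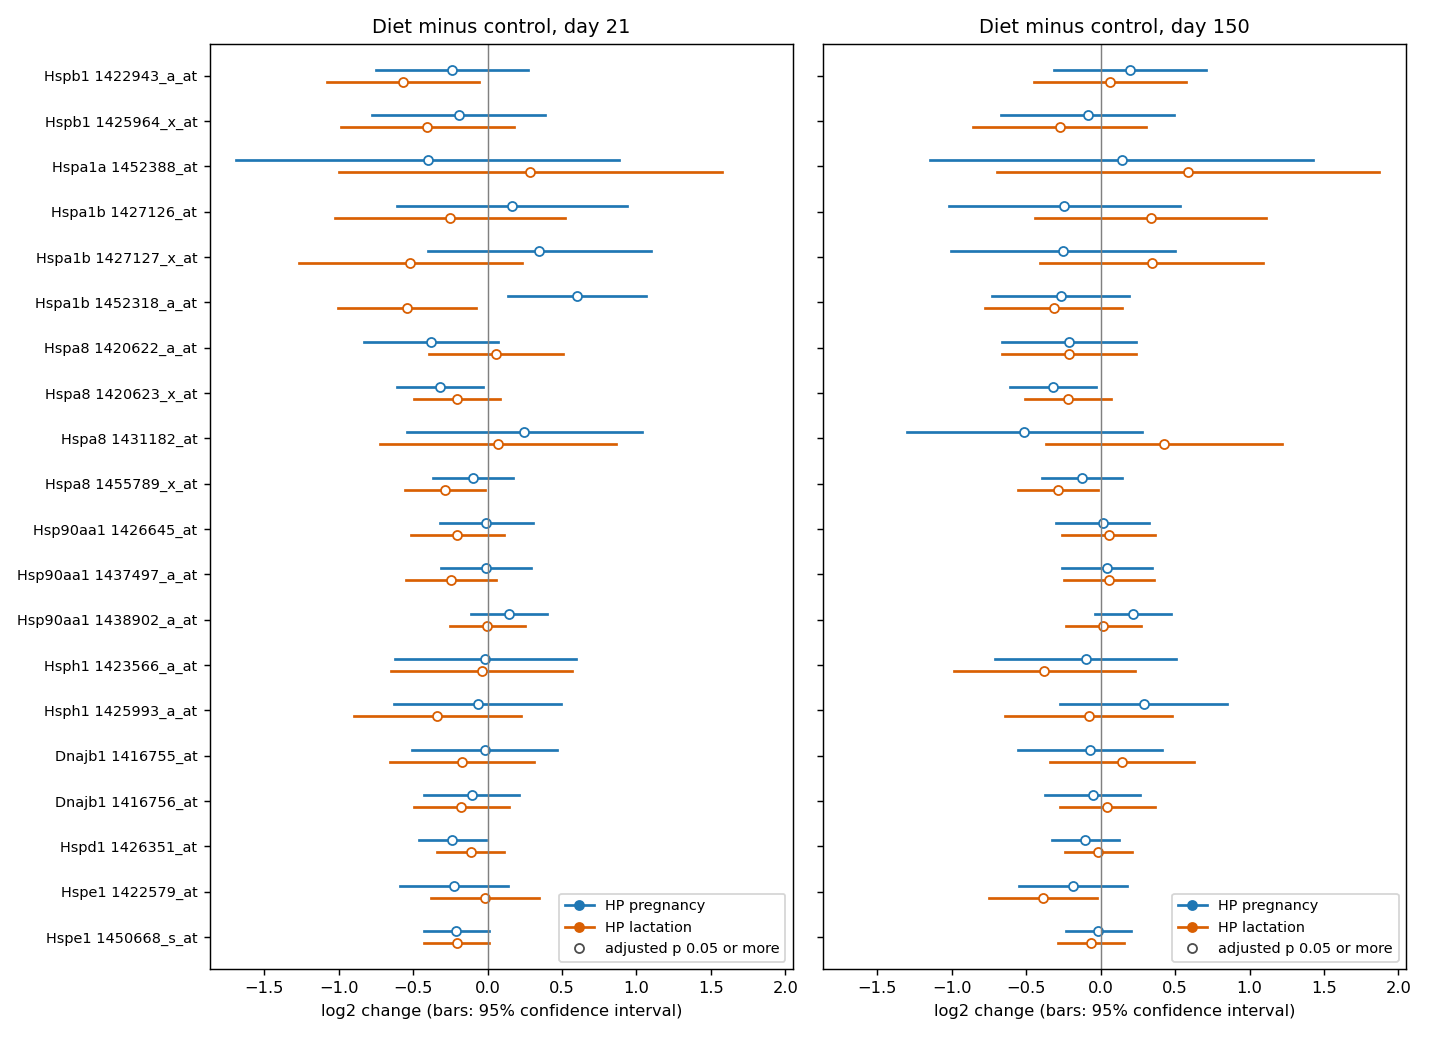
Log2 difference from control of the same day (x axis, log2 units, bars are 95% confidence intervals) for 20 heat shock protein probe sets (y axis) in HP pregnancy (blue) and HP lactation (orange), at day 21 on the left and day 150 on the right. All points are open, since none passed an adjusted p of 0.05, and the widest intervals are those of Hspa1a.

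Hspb1 at day 21 had the lowest HP lactation value of the 20, -0.57 on 1422943_a_at (95% interval -1.08 to -0.06, adjusted p = 0.274), with replicate 1 (200, or 199.6) inside the control range and replicates 2 and 3 below it. It was -0.86 without replicate 1 and -0.32 without replicate 2 (adjusted p = 0.266 and 0.549). For Hspa1a the interval in HP lactation at day 150 ran from -0.70 to 1.87, so that a difference of either sign within that range remained possible with 3 pools per group. For Hspd1 at day 150 the intervals were narrow, -0.33 to 0.12 in HP pregnancy and -0.25 to 0.21 in HP lactation. Hspa8 1420623_x_at differed from control in HP pregnancy by -0.32 on both days (adjusted p = 0.425 and 0.235, and -0.17 at day 21 with quantile normalization), and all 3 HP pregnancy arrays were below all 3 control arrays each time. Hspe1 1422579_at was -0.39 in HP lactation at day 150, with all 3 arrays (6686, 7102 and 6199) below the lowest of control (7339, adjusted p = 0.547).

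Hspb1 showed no order of diets that held up. At day 21 the geometric means on 1422943_a_at fell in the order control (196), HP pregnancy (166) and HP lactation (132), and at day 150 in the order HP pregnancy (2205), HP lactation (2011) and control (1923). Neighbours in either order overlapped. Its diet responses differed between days by 0.44 in HP pregnancy and 0.63 in HP lactation (95% interval -0.09 to 1.35, adjusted p = 0.956).

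The direct comparison of the 2 high protein groups asks whether the window of exposure mattered. At day 21 it called 1 of 20 member probe sets, Hspa1b 1452318_a_at, against 0.626% of all, and at day 150 limma called 0 of 20 against 0.453%. At an unadjusted p under 0.05 there were 2 and 1 members of 20, against 12.9% and 16.4% of all. The 3 arrays of 1 group lay beyond those of the other for 2 and 0 members, against 19.6% and 22% of all. At day 21 the 3 HP pregnancy arrays (9659, 6498 and 8216) were above the 3 control arrays (5370, or 5369.5, 6018 and 4566), and these above the 3 HP lactation arrays (3905, 3388 and 3614). HP pregnancy was 2.21-fold above HP lactation (log2 1.14, SE 0.22, adjusted p = 0.0217). Against control the differences were 0.60 (adjusted p = 0.37) and -0.54 (adjusted p = 0.25), so the call lies between the 2 high protein groups alone. The second probe set, 1427127_x_at, also had all 3 HP pregnancy arrays (4044, 3311 and 4570, or 4569.9) above all 3 HP lactation arrays (2788, 2086 and 1735), with a change of 0.87 (adjusted p = 0.303). The third, 1427126_at, gave 0.41 (adjusted p = 0.703) with overlap. The call on 1452318_a_at was lost without HP pregnancy replicate 1 (1.01, adjusted p = 0.0853) or replicate 3 (1.13, adjusted p = 0.0806), and without HP lactation replicate 1 (1.20, adjusted p = 0.0653) or replicate 2 (1.09, adjusted p = 0.0581). It was also lost when the variance prior had no trend with signal (adjusted p = 0.0827). Summed endothelial and lymphocyte markers separated the same 2 groups, but no tested marker of either list passed the threshold between them. Summed endothelial markers (6 of 6 above the filter) were 9671 to 12166 in HP pregnancy and 7759 to 8336 in HP lactation, against 9044 to 9684 in control. Of these markers 5 were higher and 1 lower in HP pregnancy. The endothelial sum was mostly Clec4g, with a median of 6024 over all arrays. Summed lymphocyte markers (2 of 4 above the filter) were 968 to 1179 and 653 to 835, against 690 to 741 in control. That sum was mostly Ptprc, with a median of 886 over all arrays, against 224 for Ighm. Cd3e and Cd79a, under the filter, had medians of 15.1 and 17.8. No marker was at 0, the other 5 marker lists overlapped between the 2 groups, and the part of these cells in the Hspa1b difference was not tested.

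At day 150 Hspa1b 1452318_a_at had geometric means of 18424, 15280 (15279.9) and 14803 in control, HP pregnancy and HP lactation. All 3 groups overlapped, and HP pregnancy minus HP lactation was 0.05 (95% interval -0.42 to 0.51). The difference of diet responses between days was -0.87 for HP pregnancy (unadjusted p = 0.0115 in limma's fit, adjusted p = 0.998, and -0.58 without day 150 replicate 2) and 0.23 for HP lactation (adjusted p = 0.969). In limma 0 of 20 members passed in these differences, against 0.00444% and 0.0178% of all, and 1 and 0 had an unadjusted p under 0.05. The age change of Hspa1b in HP lactation minus that in HP pregnancy, a comparison added after the values were seen, was 1.46 on 1427127_x_at (adjusted p = 0.601) and 1.10 on 1452318_a_at (adjusted p = 0.404), and limma called 0 of 20 members in it, against 0.0488% of all (2 at an unadjusted p under 0.05).

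Within groups Hspa1b went up and down with Hspa1a and with Dnajb1 1416755_at from pool to pool. Each gene was taken on its brightest tested probe set. The other Dnajb1 probe set, 1416756_at, had r of 0.49 with 1416755_at, and its pairs with other genes were not tested. After each group's mean was subtracted, log2 signals of Hspa1a and Hspa1b over 18 arrays had Pearson's r of 0.89 and Spearman's rho of 0.90, and those of Hspa1b and Dnajb1 had r of 0.85 and rho of 0.88. In exact two-sided permutation tests within groups (46656 arrangements), p was 0.000236 and 0.000364 for r (0.00655 each after adjustment over 36 pairs of genes) and 0.000279 and 0.000236 for rho. Without the 2 arrays farthest from the median, r was 0.86 and 0.83. For Hspa1a and Dnajb1 r was 0.75 and rho 0.77 (exact permutation p = 0.0105 and 0.00967, adjusted 0.0945 and 0.087), and r was 0.74 without 2 arrays. The first pair shares nearly identical sequence, so shared array signal and joint change cannot be told apart. Hsp90aa1 and Hsph1 had r of 0.73 and rho of 0.71 (exact permutation p = 0.00536 and 0.00394, adjusted 0.0643 and 0.0473), and 0.62 without the 2 farthest arrays. Hspd1 and Hspe1, which share their start region, had r of 0.54 and rho of 0.58 (exact permutation p = 0.0258 and 0.0194, adjusted 0.186 and 0.14), and 0.55 without 2 arrays. Over all 18 arrays Hspb1 did not go with Hspa1b (r of -0.26, rho of -0.15, exact permutation p = 0.386 and 0.606, adjusted 0.83 and 0.99, and -0.48 without 2 arrays). The r of this pair was 0.35 within day 21 and -0.70 within day 150 (9 arrays each), and that contrast was not tested.

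**Figure D4:**
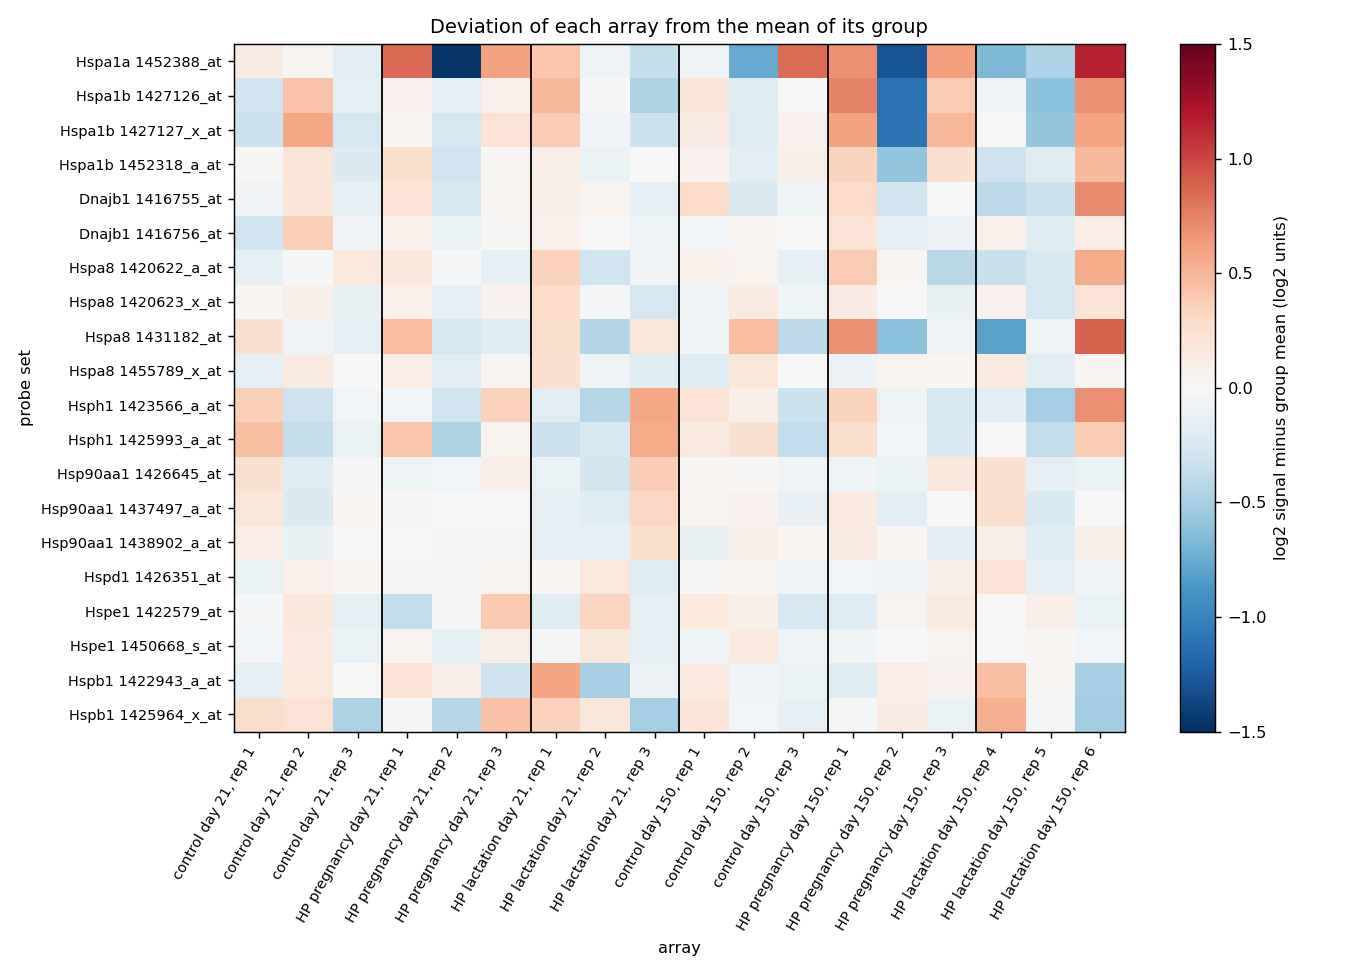
Log2 signal minus the mean of its group (colour, log2 units, red above and blue below) for 20 heat shock protein probe sets (rows) on 18 arrays (columns, 3 per group between black lines). HP lactation day 150 replicate 6 is red and HP pregnancy day 150 replicate 2 blue for Hspa1a and all 3 Hspa1b probe sets, while Hspd1 and Hspe1 1450668_s_at stay pale.

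At day 150, 2 pools stood apart in these genes. HP lactation day 150 replicate 6 was above its group mean by 1.15 for Hspa1a, 0.49 to 0.68 for Hspa1b, 0.71 and 0.11 for Dnajb1 1416755_at and 1416756_at, and 0.38 and 0.68 for Hsph1. For Hspa8 it was above by 0.56 and 0.89 on 1420622_a_at and 1431182_at and by 0.20 and 0.03 on 1420623_x_at and 1455789_x_at. HP pregnancy day 150 replicate 2 deviated from its group mean by -1.30 for Hspa1a and by -0.59 to -1.12 for Hspa1b, and by -0.04 and -0.07 for Hsph1. In replicate 6 the co-chaperone Bag3, which links HSP70 to autophagy, had a signal of 3065 against 1496 and 810 (809.7) in replicates 4 and 5. Chordc1, an HSP90 partner, had 6484 against 3559 and 3734. Hspb1 went the other way in replicate 6, at 1427 against 2746 and 2074. Without both arrays, a choice made after the data were seen, Hspa1b 1427126_at and 1427127_x_at passed in HP pregnancy too (adjusted p = 0.000801 and 0.000821). In HP lactation Hspa1a (1.66, adjusted p = 0.0516), Dnajb1 1416756_at (0.47, adjusted p = 0.0759) and Hsp90aa1 1438902_a_at (0.39, adjusted p = 0.0709) then missed the threshold.

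For each member's brightest probe set, the 3 probe sets of other genes with the highest r over the 18 centred arrays were taken from 19345 to 19348 candidates. Having been picked as the highest, they have no test. For Hspa1b they were Gm13889 (0.89), Hspa1a (0.89) and Dnajb1 (0.85), so 2 of its 3 nearest were members. For Hspa1a they were Hspa1b (0.89), Eif3c (0.84) and Fntb (0.81), for Dnajb1 Rbck1 (0.91), Nck1 (0.87) and Zfp330 (0.86), and for Hspa8 Klc1 (0.87), Neurl4 (0.87) and Ric8b (0.86). For Hsph1 they were Morf4l2 (0.90), Tmed10 (0.88) and Chordc1 (0.87), and Morf4l2, on another probe set, also stood among the nearest of Hsp90aa1 (0.90), with Tubgcp4 (0.91) and Slc30a10 (0.89). For Hspd1 they were Sdhb (0.93), Eif4a1 (0.93) and Elac2 (0.92). For Hspe1 they were Rpl10a (0.89), Etfb (0.88) and Rpsa (0.87), and for Hspb1 Snhg7 (0.89), Csf1 (0.89) and Pkn2 (0.88). Some of these held mainly at day 150. Rbck1, Nck1 and Zfp330 had r with Dnajb1 of 0.45, 0.45 and 0.38 within day 21. Within day 150 these were 0.98, 0.96 and 0.92. Gm13889 had r with Hspa1b of 0.64 within day 21 and 0.95 within day 150.

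The other chaperones and stress genes, on 1 probe set per gene, did not follow the members as a block. Of 31 measured heat shock factors and cytosolic co-chaperones (36 listed), 3, 6 and 4 rose and 3, 4 and 4 fell with age in control, HP pregnancy and HP lactation. Over all 11018 genes 8.73%, 11.3% and 13.1% rose and 7.23%, 10.8% and 10.7% fell. The list's median change was -0.04, 0.09 and -0.13. In all 3 diets Bag3 rose (1.19, 1.13 and 1.54), as did Hspb8, a small heat shock protein that works with Bag3 (0.92, 1.10 and 0.76), and Chordc1 (1.01, 1.02 and 0.68). Hsf2, a heat shock factor, fell in all 3 (-0.86, -0.98 and -0.74). Unc45a, a myosin chaperone, fell in control (-0.93) and HP lactation (-0.69), and Dnajb6, an HSP40, rose in HP pregnancy (0.65).

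Chaperones of the endoplasmic reticulum were among the genes that rose with age, and some of the cytosolic chaperonin fell. None of the 8 TRiC genes, which form the cytosolic chaperonin, rose with age, and 3, 2 and 3 fell, led by Cct8 (-0.85, -0.92 and -0.83) and Tcp1 (-0.56, -0.39 and -0.41). Of 9 mitochondrial chaperones and proteases 0 rose and 1 fell in each diet, near the shares of all genes that fell (7.23%, 10.8% and 10.7%). These were Hspa9, the HSP70 of the matrix, in control (-0.36) and HP lactation (-0.55), and Trap1, its HSP90, in HP pregnancy (-0.34). Of 14 chaperones of the endoplasmic reticulum, where secreted proteins fold, 5, 5 and 7 rose, where 8.73%, 11.3% and 13.1% of all genes did, and 0 fell. Hspa5, the HSP70 of that compartment, rose by 0.44, 0.56 and 0.52, Hyou1 by 0.80, 0.80 and 1.42, Sdf2l1 by 1.38, 1.52 and 1.24, and Creld2 by 1.37, 1.57 and 1.71. In 1 comparison with control genes of these lists passed. In HP pregnancy at day 150 Trap1 (-0.45, adjusted p = 0.0474) and Clpp, a matrix protease (-0.51, adjusted p = 0.0484), were lower, where 0.526% of all genes were.

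The other stress genes are given beside the shares of all genes that rose (8.73%, 11.3% and 13.1%) and fell (7.23%, 10.8% and 10.7%). Cirbp, an RNA-binding protein induced by cold, fell in all 3 diets (-1.20, -1.19 and -1.66), and Rbm3, the other gene of that list, was not measured. Of 11 measured immediate early genes, which respond fast to stimulation and handling, 0 rose, and 0, 2 and 5 fell, with Egr1 at -2.30 in HP pregnancy and -1.85 in HP lactation and Fos at -1.82 in HP lactation. Of 10 other stress genes 0, 1 and 0 rose and 3, 3 and 5 fell. Nqo1, an antioxidant enzyme, fell in all 3 diets (-1.08, -1.33 and -1.03), as did Txnrd1, a thioredoxin reductase (-0.71, -0.49 and -0.59), and Hmox1, which degrades haem, rose in HP pregnancy (0.81). These changes lie in the same comparisons as the Gapdh ratio above.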

How the data were processed

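The values were array signal intensities on a linear scale, deposited by the authors as 1 table of the 18 arrays; the submitters' processing notes name MAS5 and GCOS 1.4. Signals were not rescaled and were analysed as log2 with 0 added, after 64 control probe sets and probe sets under the median of the mean log2 signal were left out (22519 kept). Of all probe sets 34945 named 1 gene symbol, 932 several and 9160 none in the platform annotation, and those with several were not used for members. Levels of different probe sets were compared only for the filter and to pick a gene's brightest probe set. They were added up only for the cell type markers, where bright probe sets weigh most in a sum. Names ending in _x_at or _s_at mark probe sets that may detect more than 1 transcript. One mean per group was estimated from all 18 arrays with limma 3.58.1 (R 4.3.3), whose eBayes step allowed the variance to follow the signal, with 12 residual and 6.68 prior degrees of freedom and two-sided tests, adjusted by Benjamini-Hochberg in each of 9 pairwise comparisons and 2 differences of diet responses. The fit was tested on simulated data. The precision is limited by the 3 arrays per group (median standard error 0.22), and the exact permutation test of 3 against 3 cannot go below 0.1. Same-numbered arrays did not deviate together (r of -0.13 to 0.08, and 0 of 15 arrays were most like one with their number), so no block was used. No 2 arrays were identical.

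The members and gene lists were chosen with earlier results of these data known. Named were all members, up to 4 genes per list and age comparison with the smallest p, every listed gene past the threshold against control, and the 3 nearest probe sets of each member. Plots used matplotlib 3.10.9 (Python 3.11.15). Alternatives were quantile normalization, arrays set to equal 75th percentiles, filtering at the 70th percentile or not at all, 50 added to the signal, 1 probe set per gene, eBayes without trend, array weights, the compared arrays alone, a replicate block, the Gapdh ratio as a covariate, an adjusted p under 0.10, no arrays with Xist signal, and each array left out. The comparison of age responses between the high protein groups, and the fit without the 2 day 150 arrays in which Hspa1b stood apart, were chosen after seeing the data. Detection calls and scan dates were not given in the sources used here.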

Additional observations from a re-analysis of the deposited data

Results flagged for a closer look

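At day 21 Hspa1b 1452318_a_at differed between the 2 high protein groups by 1.14 on the log2 scale (HP pregnancy minus HP lactation, limma, adjusted p = 0.0217). The 3 HP pregnancy arrays lay above and the 3 HP lactation arrays below the 3 control arrays, but neither group passed against control. The call was lost without HP pregnancy replicate 1 or 3 or HP lactation replicate 1 or 2 (adjusted p = 0.0581 to 0.0853). It was also lost with eBayes without trend (adjusted p = 0.0827). The other Hspa1b probe sets gave 0.87 and 0.41 and did not pass. Summed endothelial and lymphocyte markers did not overlap between the same 2 groups either (9671 to 12166 against 7759 to 8336, and 968 to 1179 against 653 to 835), and their part in the difference was not tested. The endothelial sum was mostly Clec4g and the lymphocyte sum mostly Ptprc. No tested marker of either list passed the threshold between these groups.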

How the results depend on the processing

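No member value with an unadjusted p under 0.05 changed direction under any alternative run. Counted once per alternative, these values stayed on their side of the threshold 883 times, lost the call 84 times and gained it 34 times. Of the 168 values with a larger p, 94 changed sign and 3 passed under some alternative. The count of members called in the 4 comparisons with control stayed at 0 under all of them, and that of HP pregnancy against HP lactation at day 21 went to 0 with eBayes without trend and ranged from 0 to 1 with single arrays left out. The age counts of 10, 8 and 12 went to 2, 0 and 1 with the Gapdh ratio as a covariate, where the ratio and age cannot be told apart. With 1 probe set per gene they were 6 of 9 in control and 6 of 9 in HP lactation, since fewer probe sets were tested, and with array weights 13 in HP pregnancy, the cause of which was not tested. With single arrays left out they ranged from 6 to 9, 6 to 9 and 10 to 13. With the replicate block, fitted without HP lactation day 150, whose numbers pair with no group, they were 10 in control and 10 in HP pregnancy, and the block ended no member's call but added 2 in HP pregnancy, Hspa8 1431182_at (-1.06, adjusted p = 0.0191) and Hsph1 1423566_a_at (0.80, adjusted p = 0.032). Equal 75th percentiles shifted the median of HP lactation against control at day 21 by -0.13 and took the higher share of its calls over all probe sets from 62.3% to 35.3% (36.8% with quantile normalization). They took that share from 51.2% to 62.6% in HP pregnancy against control and 25.5% to 58.2% in HP pregnancy against HP lactation at day 150, and from 44.8% to 57.4% and 48.4% to 60.1% with age in HP pregnancy and HP lactation. Of the differences between days, HP lactation went from 100% to 80%.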
